A study of Mus musculus with 12 samples.

Results

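Libraries of mice given colistin, a polymyxin antibiotic used against Gram-negative bacteria, were compared with libraries of mice given saline, 3 libraries a side. All genes at 1 FPKM or more (fragments mapped to a gene, scaled to its transcript length and to all mapped fragments of the library) in at least 3 of these 6 libraries were taken, which gave 10412 genes of the 17738 with values and the 22899 listed. The question asked of them was which classes of genes changed, apart from the widely used markers of inflammation. Colistin mice received colistin sulfate at 15 mg/kg/day by intraperitoneal injection for 7 days, and control mice an equal volume of saline. All were Kunming mice, an outbred stock, recorded as female and 6 to 8 weeks old, and each library came from a separate mouse. A second pair of groups entered the same fit and was used for comparison: colistin + 7-HC mice, given the same colistin and 7-hydroxycoumarin (7-HC) at 50 mg/kg/day, and 7-HC mice, given 7-HC alone. DMSO was part of the 7-HC vehicle, so mice with and without 7-HC also differed in vehicle.

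As background, cells that export proteins thread them into the endoplasmic reticulum (ER), where chaperones fold them, a glycan is attached and faulty chains are taken out for degradation. Coat proteins then carry the cargo to the Golgi apparatus. When unfolded chains build up in the ER, sensors in its membrane raise the genes of this machinery, and a linked pathway through the transcription factor ATF4 raises genes of amino acid supply. The metabolic classes described here (respiration, fatty acid oxidation, cytochrome P450 enzymes, amino acid breakdown) are the chief work of hepatocytes and, for several of them, of proximal tubule cells. In a sample of whole tissue, fewer cells of a type and less RNA per cell cannot be told apart.

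The FPKM values of a library summed to between 594543 and 597354 in colistin and between 536615 and 564549 in control, and 10067 to 10392 genes reached 1 FPKM in a library. The label kidney was checked against markers of nephron cells. Of 12 proximal tubule markers 2 passed the filter, of 8 markers of the loop of Henle and distal tubule 0, of 9 collecting duct markers 0 and of 6 podocyte markers 2. Umod, which encodes uromodulin of the loop of Henle, was listed at 0 in all 6 libraries, and Slc5a2, Slc12a1 and Aqp2 held no value. All 10 hepatocyte markers passed, and Alb (albumin) was at 19926, 24957 and 17552 FPKM in colistin, against 48517, 45371 and 58259 FPKM in control. The data thus go against the label, and the samples are called by their treatment only. The Y-linked gene Ddx3y was at 7.93, 7.5 and 7.79 FPKM in colistin and 9.22, 8.23 and 8.58 FPKM in control, although the mice were recorded as female. Colistin replicate 2 stood apart: its correlation of log2 values with the control libraries was 0.925 to 0.931, against 0.874 to 0.902 for the other colistin libraries. Values without it are therefore given beside the main results, and values per library are always in the order of replicates 1, 2 and 3.

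At an adjusted p under 0.05, 3432 of the 10412 genes differed between colistin and control (limma on log2(FPKM + 0.5), Benjamini-Hochberg adjustment). Of all tested genes, 12.7% were higher (1322) and 20.3% lower (2110) in colistin, and the median log2 fold change over all genes was -0.07. After scaling by median ratios this median was 0.003 and 48.3% of the called genes were higher, against 38.5% without scaling, so the balance of rises and falls depended on the scaling. With a fold change of 2 or more and an adjusted p of 0.001 or less, 637 genes (6.12%) passed, 282 higher and 355 lower, and 85 did when only the 2 groups compared were fitted. The count of 637 became 382, 937 and 337 without colistin replicates 1, 2 and 3, and 319, 358 and 393 without control replicates 1, 2 and 3. The colistin and control libraries did not overlap for 4906 genes (47.1%). Members of 56 gene lists were counted against these shares. Most genes named for their list were picked as called and without overlap between the groups, so neither is a separate result for them.

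**Figure D1:**
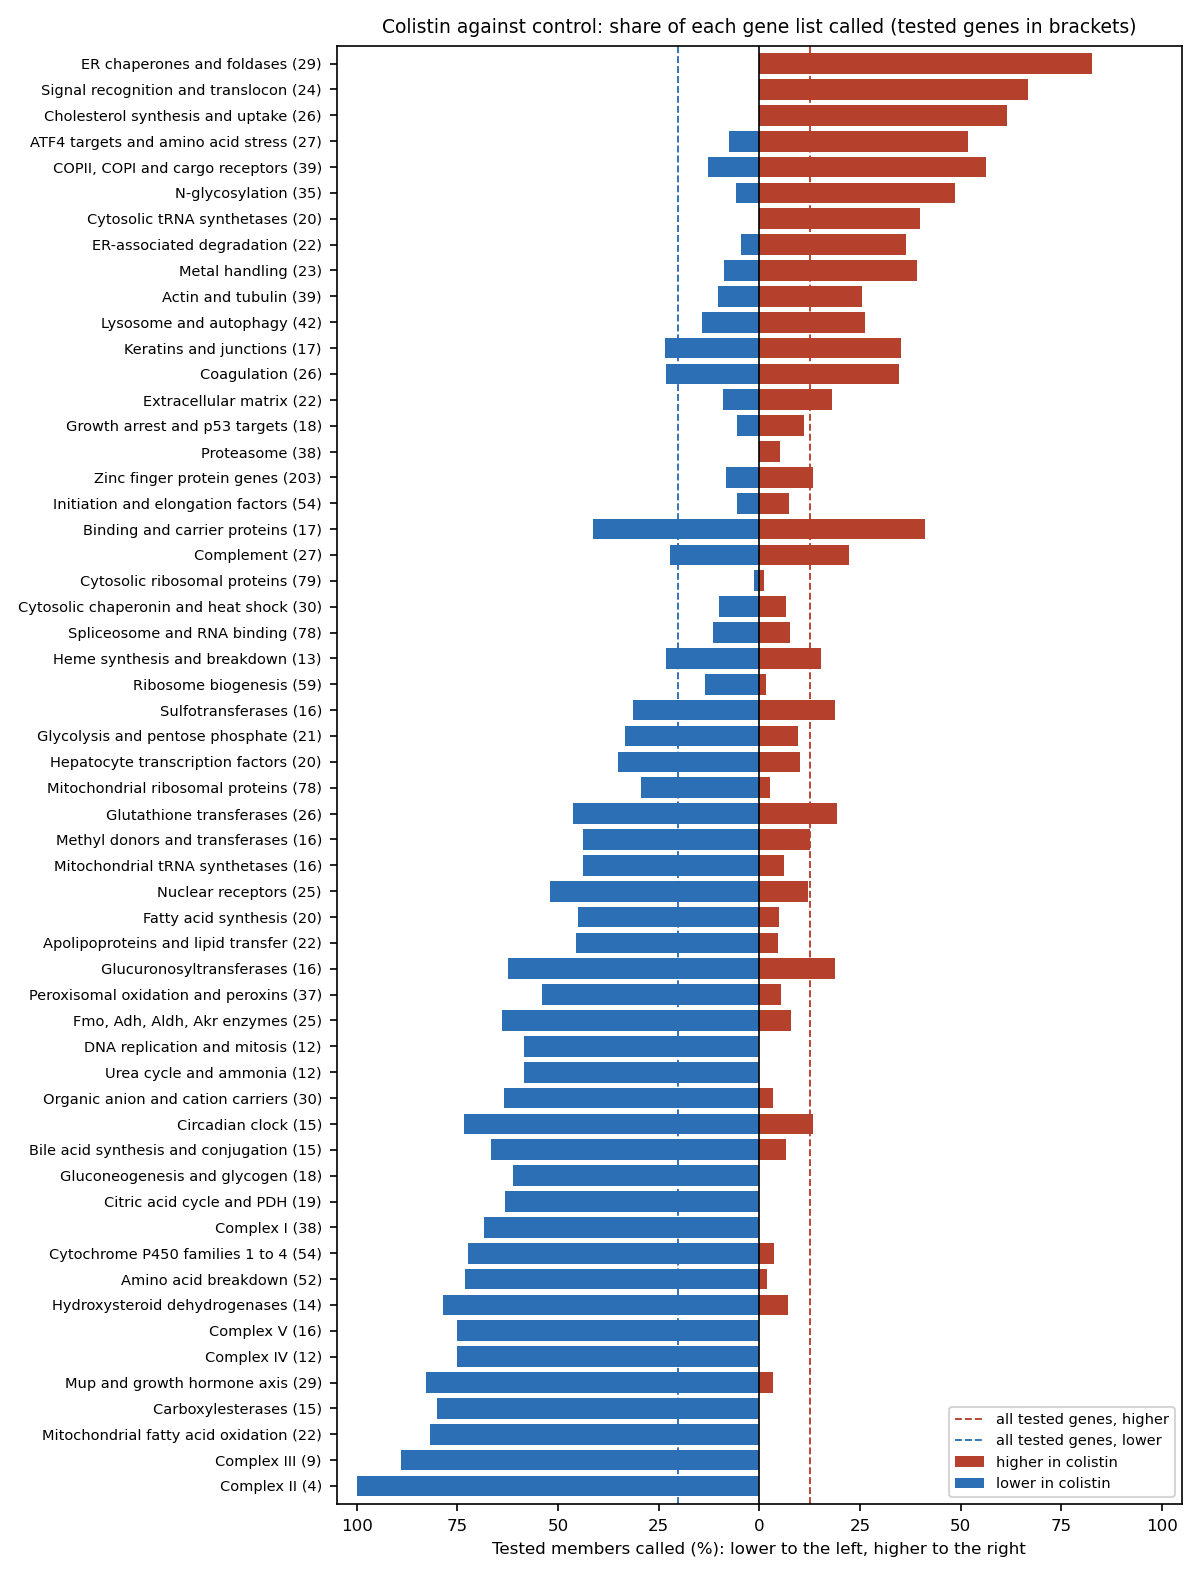
Bars give the percent of tested genes of each of the 56 gene lists that were higher (right) or lower (left) in colistin than in control at an adjusted p under 0.05, and the dashed lines mark the shares over all tested genes, 12.7% higher and 20.3% lower. Lists of the secretory pathway extend to the right of their line and lists of mitochondrial, drug and amino acid metabolism to the left of theirs.

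The folding machinery of the ER was higher in colistin. Of 29 tested ER chaperones and foldases, 24 rose and 0 fell, with a median log2 fold change of 1.28 against -0.07 over all genes, and 19 members changed by a fold of 2 or more. Without colistin replicate 2, 25 rose and the median was 1.37. The 29 genes together held 8764, 5032 and 6931 FPKM in colistin, against 2233, 2330.4 and 2236 FPKM in control, so every colistin library was above every control library and replicate 2 was the lowest of the colistin libraries. Creld2, an ER-resident protein that is induced when folding fails, was at 215, 40.9 and 102 FPKM in colistin, against 12.4, 13.2 and 8.91 FPKM in control. The groups did not overlap, and replicate 1 was far above replicate 2 (log2 fold change 3.03, SE 0.51, adjusted p = 0.00101). Pdia4, a protein disulfide isomerase that forms and rearranges disulfide bonds, was at 353, 136 and 228 FPKM in colistin, against 36, 35.7 and 40.7 FPKM in control. It rose by 2.55 on the log2 scale (adjusted p = 6.2e-05), and Manf, a small ER protein, rose by 2.41. Hspa5 (BiP), the main Hsp70 chaperone of the ER, was at 707, 337 and 498 FPKM in colistin, against 151, 167 and 147 FPKM in control (log2 fold change 1.66, SE 0.27, adjusted p = 0.000806). Hsp90b1, the ER form of Hsp90, was at 1158, 462 and 714 FPKM in colistin, against 176, 177 and 154 FPKM in control (log2 fold change 2.10, SE 0.27, adjusted p = 0.000207). In both genes the lowest colistin library was replicate 2, at over 2 times the highest control library. The 5 members without a call were Txndc5, Txndc12, Sil1, Fkbp2 and Ero1lb. Hspa5, Hsp90b1, Pdia6, Canx and Ero1lb are named here after their values were seen.

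The promoters of the chaperone genes are shown because the list moved together and a motif of stress-induced ER genes is known. The ER stress element, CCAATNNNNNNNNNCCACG, is a site for the factors NF-Y and ATF6. Windows of 250 bases before to 50 bases after the start of each gene (RefSeq, GRCm38.p6) were searched on both strands. The element was found in 8 of 25 chaperone promoters (32%), in 16 of 8389 promoters of all tested genes (0.191%) and in 37 of 27025 promoters of all genes (0.137%). It was found in 2 of 17 promoters of ER-associated degradation, 1 of 29 of N-glycosylation, 0 of 17 of the translocon and 0 of 35 of the vesicle coats. The motif was chosen because it is known in stress-induced ER genes, so its share among chaperones is no independent result. A match is a description of the letters and not of a bound site. The lines below run 5′ to 3′ on the strand of the gene, with the element in capitals.
Hspa5: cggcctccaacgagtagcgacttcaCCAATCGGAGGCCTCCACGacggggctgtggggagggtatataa
Pdia6: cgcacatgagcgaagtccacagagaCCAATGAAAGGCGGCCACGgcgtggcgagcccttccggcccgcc
Canx: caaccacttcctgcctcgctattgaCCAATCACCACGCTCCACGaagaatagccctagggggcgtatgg
Creld2: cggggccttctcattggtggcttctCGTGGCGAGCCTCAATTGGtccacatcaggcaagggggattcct
Derl3: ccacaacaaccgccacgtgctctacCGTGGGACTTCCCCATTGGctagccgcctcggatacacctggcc
The stretch of Hspa5 lies at chr2:34772000-34772068 on the plus strand, with the element ending 46 bases before the start of the gene. That of Pdia6 lies at chr12:17266466-17266534 on the plus strand, that of Canx (calnexin, a lectin chaperone) at chr11:50325775-50325843 on the minus strand, that of Creld2 at chr15:88819495-88819563 on the plus strand and that of Derl3 at chr10:75893217-75893285 on the plus strand. In Creld2 and Derl3 the element is on the opposite strand and therefore reads as its reverse complement. The Creld2 element also lies in the promoter of Alg12, a mannosyltransferase gene that starts from the other strand, and both genes rose (3.03 and 1.66). Of the 8 chaperone genes with the element 7 rose, and Ero1lb, an ER oxidase gene, had a log2 fold change of 0.58 without passing the test (adjusted p = 0.0517).

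Genes of ER-associated degradation were higher in part. Of 22 tested, 8 rose (36.4%) and 1 fell, with a median log2 fold change of 0.33 and 19 positive values. Of them, 1 passed the filter only through the colistin libraries, and without colistin replicate 2, 12 rose. Derl3, a derlin of the channel that returns proteins to the cytosol, was at 136, 32.8 and 87.2 FPKM in colistin, against 0.54, 0.54 and 0.4 FPKM in control. All 3 control libraries were below 1 FPKM, so the size of this rise depends on the pseudocount (log2 fold change 6.21, SE 0.53, adjusted p = 1.27e-05). Edem2, which trims mannose from misfolded glycoproteins, rose by 1.41 and Syvn1, the ubiquitin ligase of this pathway, by 0.97. Herpud1, a membrane protein of the same ligase complex, was at 101, 128 and 134 FPKM in colistin, against 326, 296 and 310.2 FPKM in control. Here every colistin library was below every control library, with replicate 1 the lowest (log2 fold change -1.36, SE 0.13, adjusted p = 2.29e-05). Of the sensors and their effector, Eif2ak3 (PERK) rose by 1.04 and Xbp1 rose as well (adjusted p = 0.000596), and Ern1 (IRE1) was at -0.43 without passing (adjusted p = 0.202), these 3 also chosen after their values were seen.

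Entry into the ER, glycan attachment and vesicle transport were higher as well, by smaller amounts. Of 24 genes of signal recognition and the translocon, 16 rose and 0 fell, with a median of 0.77. Ssr3, a subunit of the complex that assists translocation, was at 346, 136 and 234 FPKM in colistin, against 84.3, 80.4 and 80.4 FPKM in control. No colistin library reached down to the control range (log2 fold change 1.44, SE 0.26, adjusted p = 0.00143). Sec11c, a catalytic subunit of signal peptidase, rose by 1.28, Srp54a of the signal recognition particle by 1.16 and Srprb of its receptor by 1.16. Of 35 N-glycosylation genes, 17 rose and 2 fell (median 0.45), the falls being Pmm2 and Dpm1, numbering 1 without colistin replicate 3 and 1 without control replicate 3. Rpn1, a subunit of the enzyme that transfers the glycan, was at 104, 59.2 and 84.9 FPKM in colistin, against 20, 20.6 and 20.2 FPKM in control. The control libraries lay close together and each colistin library was well above them (log2 fold change 1.96, SE 0.18, adjusted p = 2.46e-05). Ddost, of the same enzyme, rose by 1.32. Of 39 genes of the COPII and COPI coats and their cargo receptors, 22 rose and 5 fell (median 0.44), and the count of rises was 12 without colistin replicate 1 and 14 without colistin replicate 3. The falls, Tmed1, Sar1b, Tmed5, Arf5 and Arf3, numbered 3 without colistin replicate 1 and 3 without control replicate 3. Tmed3, a p24 cargo receptor, rose by 1.37, Kdelr2, which retrieves escaped ER proteins, by 1.06 and Surf4, a receptor for soluble cargo, by 1.04. Over the 5 lists of the secretory pathway, 87 of 149 genes rose and 8 fell (median 0.62).

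**Figure D2:**
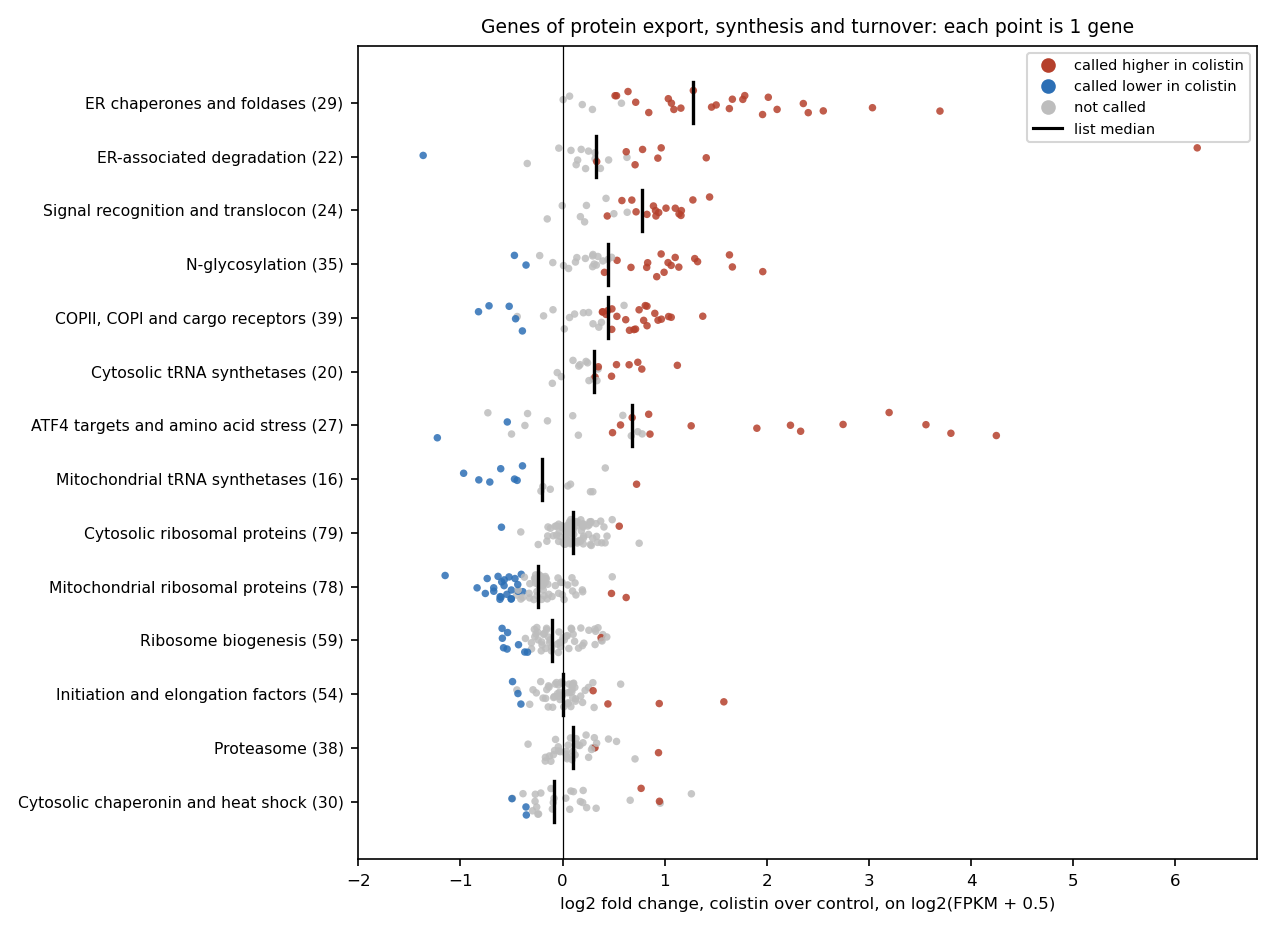
Each point is the log2 fold change (colistin against control, on log2(FPKM + 0.5)) of a tested gene on a list of the secretory pathway or of protein synthesis and turnover, with the median of the list marked. ER chaperones have the highest median of the secretory lists, 1.28, and cytosolic ribosomal proteins lie close to 0 with a median of 0.10.

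The pathway of ATF4, a transcription factor whose translation rises when amino acids are short or the ER is stressed, was higher in part. Of 27 tested targets and regulators (30 listed), 14 rose and 2 fell, with a median of 0.68. The 2 falls numbered 0 without colistin replicate 1, 1 without colistin replicate 3, 1 without control replicate 1, 0 without control replicate 2 and 0 without control replicate 3, and 3 members passed the filter only through the colistin libraries. Asns (asparagine synthetase) was at 38.8, 23.4 and 34.2 FPKM in colistin, against 1.78, 2.48 and 0.2 FPKM in control, with control replicate 3 the lowest (log2 fold change 4.25, SE 0.42, adjusted p = 3.58e-05). Fgf21, a hormone of the fasting and stress response, was at 33, 38.8 and 24.1 FPKM in colistin, against 4.12, 1.29 and 0.94 FPKM in control. Its groups were also apart, though the control libraries differed widely among themselves (log2 fold change 3.80, SE 0.48, adjusted p = 0.000167). Psat1 of serine synthesis rose by 3.56, Nupr1, a stress-induced nuclear protein, by 3.20, and Mthfd2 of the mitochondrial folate cycle by 2.75. Atf4 itself rose by 0.86. Among the 11 members without a call were Ddit3 (CHOP) at 0.78, Atf3 at 0.10, Trib3 at -0.15 and Chac1 at 0.74. These were named after their values were seen, as was Pck2.

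Cytosolic tRNA synthetases, which charge tRNA with amino acids, and their mitochondrial counterparts moved apart. Of 20 cytosolic synthetases 8 rose and 0 fell (median 0.31), but the count was 4 without colistin replicate 1, 4 without colistin replicate 3, 3 without control replicate 2 and 5 without control replicate 3. Of 16 tested mitochondrial synthetases 1 rose and 7 fell (median -0.20). Nars (asparagine) was at 84.4, 42.2 and 59.7 FPKM in colistin, against 30.7, 26.9 and 24.1 FPKM in control, without overlap (log2 fold change 1.12, SE 0.20, adjusted p = 0.00136), and Lars (leucine) and Sars (serine) rose by 0.74 and 0.65. Fars2, the mitochondrial phenylalanine enzyme, was at 8.41, 10.6 and 7.93 FPKM in colistin, against 17, 19.8 and 17.1 FPKM in control. All colistin libraries were below all control libraries (log2 fold change -0.97, SE 0.13, adjusted p = 0.000239). Sars2 and Nars2, the mitochondrial serine and asparagine enzymes, had log2 fold changes of -0.71 and -0.61, and the 1 mitochondrial rise was Ears2 at 0.73.

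Promoters of both lists were searched for the amino acid response element, TGATGNAA, a site for ATF4 with a C/EBP partner. Of the promoters that held it, some of genes called higher are shown. It was found in 8 of 24 promoters of the ATF4 list (33.3%), 5 of 13 of the cytosolic synthetases (38.5%) and 0 of 13 of the mitochondrial synthetases. Of the promoters of all tested genes 228 of 8389 (2.72%) held it, and of all genes 1219 of 27025 (4.51%). The ATF4 list was drawn up from known targets and regulators, so a share above that of all genes was built into it. The element is short, so matches are common, and it is in capitals below.
Asns: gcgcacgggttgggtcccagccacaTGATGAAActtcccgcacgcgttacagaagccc
Fgf21: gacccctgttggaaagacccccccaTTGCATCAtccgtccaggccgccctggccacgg
Nupr1: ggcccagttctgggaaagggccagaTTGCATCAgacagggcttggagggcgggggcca
Pck2: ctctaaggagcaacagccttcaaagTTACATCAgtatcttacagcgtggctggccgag
Gars: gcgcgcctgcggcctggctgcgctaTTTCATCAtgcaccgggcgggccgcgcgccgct
These stretches lie at chr6:7693200-7693257 (Asns, minus strand), chr7:45615597-45615654 (Fgf21, minus strand), chr7:126625548-126625605 (Nupr1, minus strand), chr14:55540138-55540195 (Pck2, plus strand) and chr6:55037946-55038003 (Gars, plus strand). In Asns the element reads forward, 15 to 23 bases before the start of the gene, and in the other 4 genes as its reverse complement. Pck2, the mitochondrial phosphoenolpyruvate carboxykinase, rose by 1.90 and Gars, the glycine synthetase, by 0.53, a call lost without control replicate 2. Atf3, Trib3, Chac1 and Vldlr on the ATF4 list and Aars, Iars and Tars among the synthetases also held the element and were not called. Yars, a synthetase gene that held it and is not shown, rose by 0.48.

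Among other genes of protein synthesis and turnover, calls were few except in the mitochondrial ribosome. Of 79 tested cytosolic ribosomal proteins 1 was higher (Rplp0) and 1 lower (Rps27l), with a median of 0.10, and Rplp0 kept its call with a library left out only when this was colistin replicate 2, while Rps27l lost its call without colistin replicate 3 or control replicate 1. Of 78 mitochondrial ribosomal proteins 23 were lower and 2 higher (0 or 1 without colistin replicate 1 or any control replicate; median -0.24). The share of falls was 29.5%, against 20.3% over all genes, with 67 of 78 log2 fold changes negative, and falls numbered 19 after scaling and 16 to 28 with a library left out. Mrpl12 had a log2 fold change of -1.15 and Mrps22 one of -0.84. Of 59 ribosome biogenesis genes 1 was higher and 8 lower, against 7 higher and 5 lower after scaling, and the falls numbered 5 without colistin replicate 1, 2 without colistin replicate 3, 4 without control replicate 1, 3 without control replicate 2 and 5 without control replicate 3, so no direction is given. Eif1a, which helps to set the start codon, was at 48.5, 38.5 and 48 FPKM in colistin, against 13.7, 15.9 and 14.4 FPKM in control, and had the largest log2 fold change of the called members among 54 initiation and elongation factors (log2 fold change 1.58, SE 0.12, adjusted p = 5.18e-06). Of 38 proteasome genes 2 were higher, Psmd10, an assembly chaperone, at 0.94 and Psmc2, which lost its call in all 6 runs with a library left out, when rises numbered 1 without colistin replicate 2, 4 without colistin replicate 3, 1 without control replicate 1 and 1 without control replicate 3. Of 30 cytosolic chaperonin and heat shock genes 2 rose, Bag3 and Hspb8, partners in autophagy of misfolded proteins, by 0.95 and 0.77, and 3 were lower, which numbered 0 without colistin replicate 1, 5 without colistin replicate 2, 0 without colistin replicate 3, 0 without control replicate 1, 0 without control replicate 2 and 0 without control replicate 3.

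Cholesterol synthesis and fatty acid synthesis, which are both under SREBP transcription factors, went in opposite directions. Of 26 cholesterol genes 16 rose and 0 fell (median 0.93), and 15 or 16 rose with any of the 6 libraries left out. Sqle, which makes squalene epoxide, rose by 3.03. Of 20 tested fatty acid synthesis genes 1 rose and 9 fell (median -0.59), the rise being Elovl1. Thrsp (Spot 14), a regulator of lipogenesis, was at 9.35, 9.88 and 20.4 FPKM in colistin, against 441, 357 and 190.0 FPKM in control. The highest colistin library, replicate 3, was below the lowest control library (log2 fold change -4.59, SE 0.36, adjusted p = 7.07e-06). Scd1, the stearoyl-CoA desaturase, had a log2 fold change of -2.04 and Elovl5, an elongase of polyunsaturated chains, one of -1.66. Srebf2, which encodes the SREBP of the cholesterol pathway and was named after its values were seen, rose by 1.03 (adjusted p = 0.00321).

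**Figure D3:**
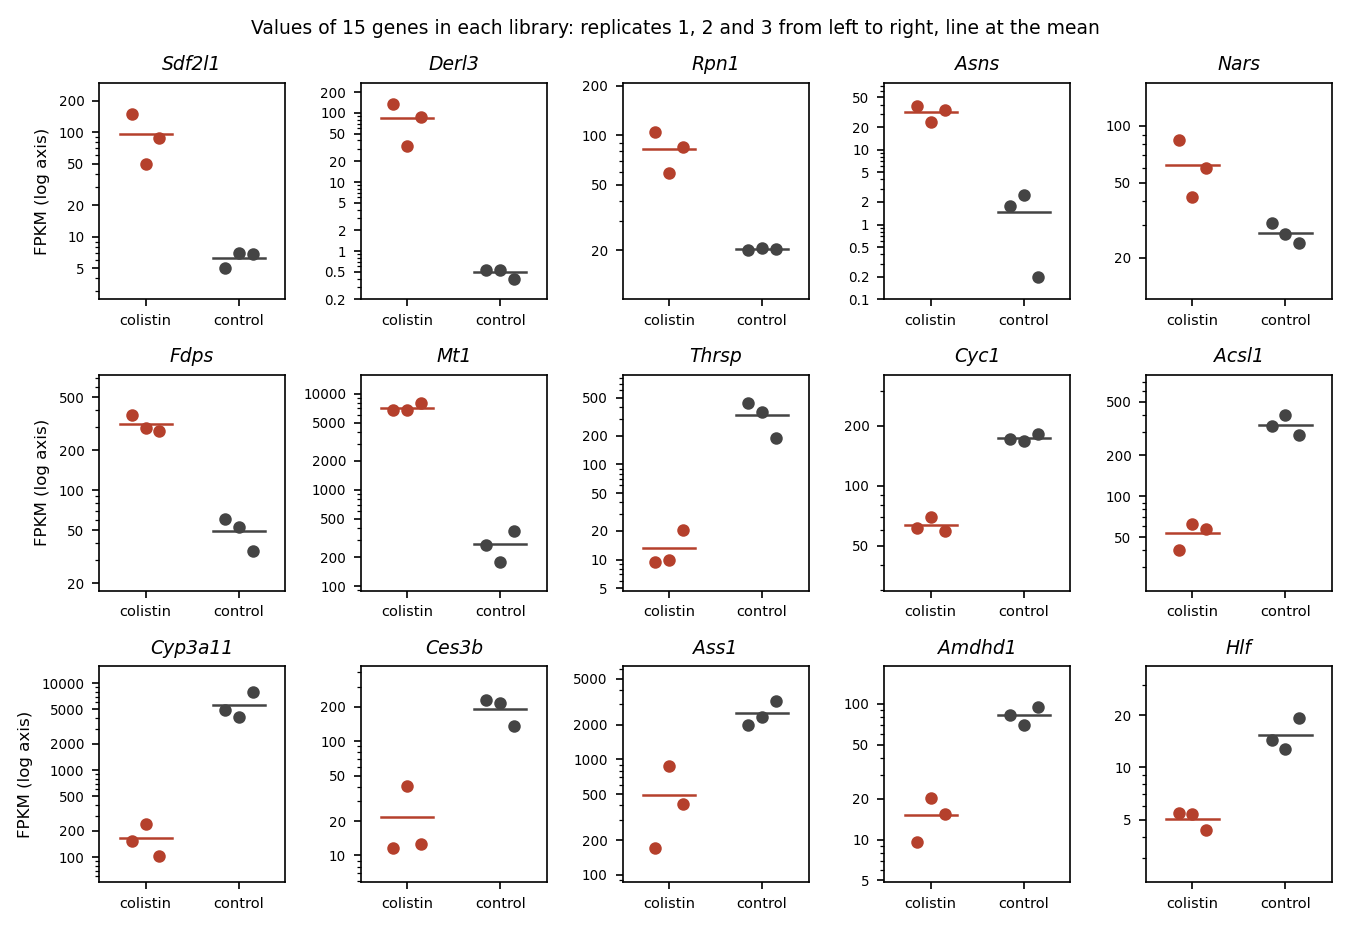
Points are the FPKM of 15 genes in each colistin library (left) and each control library (right) on a log axis, with replicates 1, 2 and 3 from left to right and a line at the group mean. In every panel the 2 groups are apart, which was a condition for naming these genes. Replicate 2 is the colistin library nearest the control libraries in all panels except those of Fdps, Thrsp and Hlf.

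All 5 complexes of oxidative phosphorylation were lower in colistin. Of 79 tested subunits and assembly genes 59 fell and 0 rose, with a median of -0.69. Falls numbered 26 of 38 in complex I, 4 of 4 in complex II, 8 of 9 in complex III, 9 of 12 in complex IV and 12 of 16 in complex V, with medians of -0.68, -0.96, -0.79, -0.64 and -0.74. Together these genes held 8388, 8778 and 7738 FPKM in colistin, against 13860, 13540 and 13110 FPKM in control. Every colistin library was below every control library, and colistin replicates 1 and 2 were close together. Sdhb, the iron-sulphur subunit of complex II, was at 90.8, 119 and 84.4 FPKM in colistin, against 243, 213 and 239.9 FPKM in control. No library overlapped (log2 fold change -1.25, SE 0.18, adjusted p = 0.000375). Ndufa6 of complex I had a log2 fold change of -1.07 and Atp5c1, the gamma subunit of ATP synthase, one of -1.04. Of 19 genes of the citric acid cycle and pyruvate dehydrogenase 12 fell and 0 rose (median -0.66), with Dlat of pyruvate dehydrogenase at -1.14.

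Genes of mitochondrial fatty acid oxidation were lower, as were most genes of peroxisomal enzymes. Of 22 mitochondrial genes 18 fell and 0 rose (median -0.70), and 17 or 18 fell with any library left out. Acsl1, which activates long-chain fatty acids, was at 40.1, 62.3 and 57.7 FPKM in colistin, against 332, 395 and 283 FPKM in control. Its colistin libraries lay far below its control libraries (log2 fold change -2.66, SE 0.28, adjusted p = 5.34e-05). Etfa, which passes electrons from the acyl-CoA dehydrogenases, had a log2 fold change of -1.13. Of 21 peroxisomal enzyme genes, not all of which act in fatty acid oxidation, 15 fell and 1 rose (median -1.03). Of 16 peroxin genes, whose products build the organelle, 5 fell and 1 rose (median -0.28), and the difference between enzymes and peroxins was not tested. Acaa1b, a peroxisomal thiolase, had a log2 fold change of -5.22 and Ehhadh, the bifunctional enzyme, one of -2.66. Of the enzymes outside fatty acid oxidation, the urate oxidase Uox was at -2.09 and catalase (Cat) at -1.76.

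**Figure D4:**
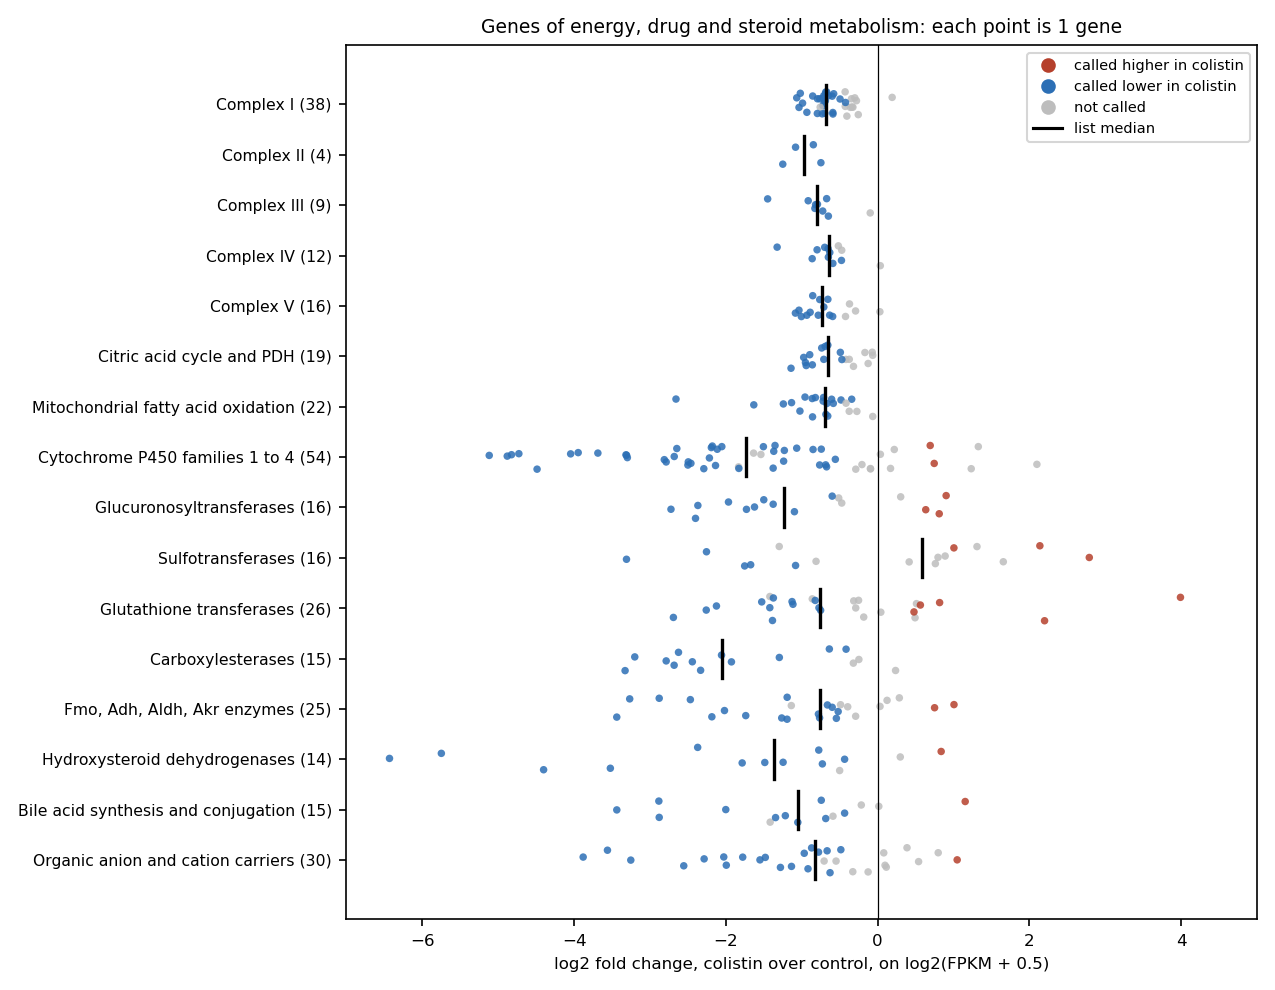
Each point is the log2 fold change (colistin against control, on log2(FPKM + 0.5)) of a tested gene, with the median of its list marked. The lists are those of mitochondrial energy metabolism, drug and steroid metabolism, bile acid synthesis and organic ion carriers. The sulfotransferases have their median at 0.59 and the carboxylesterases at -2.06.

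Enzymes of drug and steroid metabolism were lower in colistin in most families. Of 54 tested cytochrome P450 genes of families 1 to 4 (78 listed, 24 below the filter), 39 fell and 2 rose, with a median of -1.73. Without colistin replicate 2, 37 fell and the median was -2.11. Of the tested P450 genes 1 passed the filter only through the control libraries. The list summed to 3333, 11453 and 4908 FPKM in colistin, against 21759, 19897 and 26243 FPKM in control, with replicate 2 the highest of the colistin libraries. By subfamily, 11 of 11 Cyp2c genes fell (median -2.79), 7 of 7 Cyp2d genes (-1.23), 4 of 5 Cyp3a genes (-3.32) and 5 of 6 Cyp4a genes (-2.34), while 0 of 4 Cyp2a genes were called. The Cyp2a genes summed to 494.3, 5629 and 1056 FPKM in colistin, against 1681, 348.9 and 568 FPKM in control. They thus held 5629 of the 11453 FPKM of the list in colistin replicate 2. Many genes within a subfamily are near-identical, so reads can be split between them and single values are uncertain. Cyp2c29 was at 12.3, 33.6 and 15.4 FPKM in colistin, against 482, 378 and 864 FPKM in control. Even its highest colistin library was far below its lowest control library (log2 fold change -4.82, SE 0.36, adjusted p = 5.67e-06). The 2 rises were Cyp4f17 and Cyp2r1, a vitamin D 25-hydroxylase, and 1 of them was left without colistin replicate 3, control replicate 1 or control replicate 2.

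Conjugating enzymes and esterases followed, with exceptions in some families. Of 16 tested glucuronosyltransferases 10 fell and 3 rose (median -1.24), with Ugt2a3 at -2.72, and of 26 glutathione transferases and their partners 12 fell and 5 rose (median -0.76). Gstp2, a pi-class transferase, was at 40.1, 74.8 and 119 FPKM in colistin, against 5.21, 6.37 and 1.82 FPKM in control. It was higher in every colistin library (log2 fold change 3.99, SE 0.56, adjusted p = 0.000318), and the other rises were Gstp3, Gstm5, Gsr (glutathione reductase) and Gclc, which limits glutathione synthesis. Sulfotransferases showed 5 falls and 3 rises of 16 with a positive median (0.59), which was -0.15 without colistin replicate 2. Their rises numbered 1 without colistin replicate 1, 1 without colistin replicate 3 and 1 without control replicate 2, and their falls 3 without colistin replicate 1 and 3 without colistin replicate 3. Of 15 tested carboxylesterases 12 fell and 0 rose, with the lowest median of these families (-2.06). Ces3b was at 11.6, 40.8 and 12.6 FPKM in colistin, against 228, 215 and 135 FPKM in control (log2 fold change -3.33, SE 0.44, adjusted p = 0.00024). The groups did not overlap, and replicate 2 was again the highest colistin library. Aox3, an aldehyde oxidase, had a log2 fold change of -3.44 and the aldo-keto reductase Akr1c6 one of -3.27.

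Steroid dehydrogenases, bile acid enzymes and carriers of organic ions were lower too. Of 14 tested steroid dehydrogenases 11 fell and 1 rose (median -1.37), and 1 passed the filter only through the control libraries. The rise was Hsd17b7, which also acts in cholesterol synthesis, and Hsd17b6 had a log2 fold change of -3.52. Of 15 bile acid genes 10 fell and 1 rose (median -1.05), the rise being Acox2. Cyp7a1, the rate-limiting enzyme of bile acid synthesis, was at 0.83, 18 and 0.61 FPKM in colistin, against 21.1, 27.4 and 57 FPKM in control. Replicate 2 was close to the control range and the other colistin libraries below 1 FPKM (log2 fold change -3.44, SE 0.91, adjusted p = 0.0132), and the call was lost without colistin replicate 1, colistin replicate 3 or control replicate 3. Of 30 tested carriers (60 listed, 25 below the filter and 5 blank) 19 fell and 1 rose (median -0.82). Of these carriers 2 passed the filter only through the control libraries and 1 only through the colistin libraries. The organic anion carriers Slco1a1 and Slc22a7 had log2 fold changes of -3.88 and -3.25, and Abcc4, an exporter, rose.

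Genes of amino acid breakdown, the urea cycle and gluconeogenesis were lower, and those of glycolysis were divided. Of 52 amino acid breakdown genes 38 fell and 1 rose (Sdsl), with a median of -0.83. Amdhd1, an enzyme of histidine breakdown, was at 9.68, 20.2 and 15.4 FPKM in colistin, against 83, 70.3 and 95.1 FPKM in control. The groups were far apart, with replicate 2 the highest colistin library (log2 fold change -2.47, SE 0.22, adjusted p = 2.02e-05). Aldh4a1 of proline breakdown had a log2 fold change of -2.16 and Gpt, an alanine aminotransferase, one of -2.15. Of 12 tested genes of the urea cycle and ammonia handling 7 fell and 0 rose (median -1.15). Ass1, argininosuccinate synthase, was at 172, 880 and 409.6 FPKM in colistin, against 1979, 2324 and 3213 FPKM in control, again with replicate 2 nearest to control (log2 fold change -2.63, SE 0.44, adjusted p = 0.000946). Otc of the same cycle had a log2 fold change of -1.85 and Glul (glutamine synthetase) one of -1.91. Of 18 gluconeogenesis and glycogen genes 11 fell and 0 rose (median -1.05), with the glucose-6-phosphatase gene G6pc at -3.23 and the glucose carrier Slc2a2 at -3.08. Of 21 tested glycolysis and pentose phosphate genes 7 fell (5 after scaling) and 2 rose (median -0.24), the rises being Pkm, a pyruvate kinase, and Pgd, of the pentose phosphate pathway, each by 1.24. Of 16 tested methyl donor and methyltransferase genes 7 fell and 2 rose (median -0.58), and Gamt, which makes creatine, had a log2 fold change of -3.17. Nnmt, which methylates nicotinamide, was at 67.9, 48.7 and 75.8 FPKM in colistin, against 1.31, 2.33 and 1.24 FPKM in control. All colistin libraries were far above the control libraries (log2 fold change 4.94, SE 0.51, adjusted p = 4.77e-05), and the list had 1 rise without colistin replicate 1, colistin replicate 3, control replicate 1 or control replicate 3.

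Hepatocyte markers moved with these metabolic lists. Of the 10 markers 8 were lower and 0 higher in colistin (median -1.15), and they summed to 32171, 39579 and 30606 FPKM in colistin, against 76817, 75872 and 87731 FPKM in control. Hnf4a, a transcription factor that defines the cell type, was at a log2 fold change of -0.13 (adjusted p = 0.465). Of 12 macrophage markers 2 were higher and 1 lower, with sums of 167, 356 and 294 FPKM in colistin and 227, 340.1 and 247 FPKM in control. Of 6 tested neutrophil markers 3 were higher (S100a8, S100a9 and Retnlg), of which S100a8 and Retnlg passed the filter only through the colistin libraries. The 6 markers had sums of 54.8, 31.7 and 55.3 FPKM in colistin and 8.72, 8.55 and 11.8 FPKM in control, and Ly6g was at 4.05 to 4.43 FPKM in colistin and 4.73 to 5.48 FPKM in control. Endothelial (9), stellate (9), cholangiocyte (3) and erythroid (3) markers had at most 1 call in a direction. The part of these cell types in the results was not tested.

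Genes of secreted plasma proteins went in both directions. Of 26 coagulation genes 9 were higher (34.6%) and 6 lower (23.1%), and of 27 tested complement genes 6 were higher and 6 lower (22.2% each). Over all genes 12.7% were higher and 20.3% lower, so the falls were near the share of all genes. After scaling, 11 coagulation genes were higher and 5 lower, and 7 complement genes higher and 4 lower. Over all 10412 tested genes 1681 were then higher and 1796 lower. C9 of the membrane attack complex had a log2 fold change of -1.66 and the lectin Mbl2 one of -1.61, while Cpb2, an inhibitor of clot lysis, rose by 2.11. Of 17 binding and carrier proteins 7 were higher and 7 lower, and the rises numbered 4 without colistin replicate 3, 4 without control replicate 1 and 4 without control replicate 2. The 2 hormone carriers differed in direction. Serpina6, which carries glucocorticoids, was at 7.6, 46.7 and 27.8 FPKM in colistin, against 671, 292 and 392 FPKM in control (log2 fold change -4.27, SE 0.56, adjusted p = 0.000231). Serpina7, which carries thyroxine, was at 45.9, 30.6 and 80.6 FPKM in colistin, against 12.3, 9.56 and 3.9 FPKM in control (log2 fold change 2.56, SE 0.40, adjusted p = 0.000679). In each gene the groups were apart. Of 22 apolipoprotein and lipid transfer genes 10 were lower and 1 higher (median -0.58), with the hepatic lipase Lipc at -2.96.

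Major urinary protein (Mup) genes, which encode pheromone carriers under growth hormone control, were lower. Of 29 tested genes of the family and its hormone axis 24 fell and 1 rose, and falls numbered 14 without colistin replicate 1 and 15 without control replicate 2. The 18 Mup genes, which are near-identical copies, summed to 1296, 4835 and 1358 FPKM in colistin, against 35400, 42910 and 7476 FPKM in control. Control replicate 3 was far below the other control libraries and less than 2 times above colistin replicate 2. Of the tested Mup genes 2 passed the filter only through the control libraries.

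Genes of metal handling were higher in part. Of 23 tested 9 rose and 2 fell, with a median of 0.39, which was 0.12 without colistin replicate 2. Log2 fold changes over the list ran from -4.77 to 4.82. The falls numbered 4 without colistin replicate 2, 1 without control replicate 2 and 1 without control replicate 3. Mt1, a metallothionein that binds zinc and copper, was at 6817, 6767 and 7885 FPKM in colistin, against 269, 178 and 373 FPKM in control. The colistin libraries were close together (log2 fold change 4.77, SE 0.27, adjusted p = 8.52e-07), Mt2 rose by 4.75 and Steap4, a metalloreductase, by 4.82. Slc11a2 (DMT1), an iron carrier, rose by 1.98 and the zinc carrier Slc39a14 by 1.52. Of 13 heme genes Hpx (hemopexin), which binds free heme, rose by 3.34, and Alas1, the rate-limiting enzyme of heme synthesis, had a log2 fold change of -1.90.

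Structural and growth genes were divided. Of 39 actin and tubulin genes 10 were higher (25.6%) and 4 lower (10.3%), against 12.7% and 20.3% over all genes. The falls numbered 1 without colistin replicate 1 and 2 without control replicate 2. Falls in the matrix (9.09%) and lysosome (14.3%) lists below were also under the share of all genes. The beta-tubulin Tubb2a rose by 1.59 and the tropomyosin Tpm1 by 1.19. Krt18, a keratin of epithelia, rose by 1.11 and Gjb2, a gap junction protein, by 1.04, while Gjb1, the other main connexin of hepatocytes, fell by 0.68. Of 22 tested matrix genes 4 were higher, 2 lower and 16 without a call, with a median of -0.28 and 16 negative log2 fold changes. The rises numbered 2 without colistin replicate 1 and 2 without control replicate 1, and the falls 0 without colistin replicate 1, 4 without colistin replicate 2, 0 without colistin replicate 3, 1 without control replicate 1, 1 without control replicate 2 and 4 without control replicate 3. Among the rises, Timp1, an inhibitor of matrix proteases, rose by 2.88 and Col4a1 of basement membrane by 1.57. Of 12 tested replication and mitosis genes (30 listed, 18 below the filter) 7 fell and 0 rose (median -0.57), with Tk1 (thymidine kinase) at -2.96 and cyclin D1 (Ccnd1) at -2.13. Of the 12 genes 1 passed the filter only through the control libraries. Of 18 tested growth arrest and p53 target genes 2 were higher (11.1%, against 12.7% over all genes), 1 was lower and 15 had no call. After scaling, 5 were higher and 0 lower. Falls on this list numbered 0 without colistin replicate 1, colistin replicate 3, control replicate 1 or control replicate 3. Of its members, Cdkn1a (p21), which halts the cell cycle, was at 35, 4.52 and 20.3 FPKM in colistin, against 1.51, 2.55 and 1.65 FPKM in control. Replicate 2 was at less than 2 times the highest control library and the other colistin libraries were far above it (log2 fold change 2.71, SE 0.62, adjusted p = 0.00629). Of 42 lysosome and autophagy genes 11 were higher and 6 lower. Rises numbered 7 without colistin replicate 3, 6 without control replicate 1 and 6 without control replicate 2, and falls 3 without colistin replicate 1 and 10 without colistin replicate 2. Map1lc3b (LC3B), which coats autophagosomes, rose by 1.04.

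Transcription factors of the clock and of nuclear receptor families were often lower. Of 15 tested clock genes 11 were lower and 2 higher (Clock and Nfil3, 1 of them without colistin replicate 3), with a median of -1.04, and falls numbered 7 without colistin replicate 3 and 7 without control replicate 1. Dbp, an output factor of the clock, was at 2.68, 53.7 and 11.1 FPKM in colistin, against 103, 84.9 and 104 FPKM in control, with replicate 2 the highest colistin library by far (log2 fold change -2.95, SE 0.72, adjusted p = 0.0087). Hlf, of the same PAR bZIP family, was at 5.48, 5.39 and 4.36 FPKM in colistin, against 14.4, 12.8 and 19.2 FPKM in control. Here replicate 2 was like the other colistin libraries (log2 fold change -1.50, SE 0.20, adjusted p = 0.000217). Ciart, a repressor of the clock, had a log2 fold change of -2.38. The hour of day at which tissue was taken is not given in the sources used here. Of 25 tested nuclear receptors 13 were lower and 3 higher (median -0.47), and falls numbered 8 without colistin replicate 1, 8 without colistin replicate 3 and 8 without control replicate 1. Nr0b2 (SHP), a repressor of bile acid synthesis, had a log2 fold change of -2.88 and Esrra, a regulator of mitochondrial genes, one of -1.39, while the estrogen receptor Esr1 rose by 1.57. Of 20 hepatocyte transcription factors 7 were lower and 2 higher, and Cebpd, an acute-phase factor, rose by 1.47.

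Broad nuclear lists stayed near or below the shares of all genes without scaling. Of 78 tested spliceosome and RNA binding genes 6 were higher and 9 lower, the falls numbering 5 without colistin replicate 1 and 5 without control replicate 1. Of 203 tested zinc finger genes (387 listed) 27 were higher and 17 lower, and 18 and 20 without colistin replicate 2. After scaling 44 were higher and 13 lower. Over all 10412 tested genes 1681 were higher and 1796 lower after scaling, so the zinc finger rises were then above the share of all genes. The zinc finger falls numbered 8 without colistin replicate 1 and 11 without control replicate 3. For reference, of 45 tested inflammation markers 36 were higher and 1 lower (Il6ra), with a median of 2.67. Outside the inflammation and interferon lists, 262 of 1698 listed genes tested were higher and 501 lower. Of these 1698 genes 12 passed the filter only through the colistin libraries and 7 only through the control libraries. Of the 3432 called genes 2609 were on no list.

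Colistin replicate 2 was the colistin library nearest to control for most lists. Of 33 lists with a median log2 fold change of 0.4 or more in either direction, the distance from the control mean was smallest in replicate 2 for 30, in replicate 1 for 3 and in replicate 3 for 0. The median distance of ER chaperones was 1.61, 0.94 and 1.41 in colistin replicates 1, 2 and 3, that of the translocon 1.25, 0.38 and 0.78, that of the urea cycle -1.79, -0.43 and -1.17 and that of the clock -1.37, -0.38 and -1.07. For complex I the medians were -0.59, -0.57 and -0.71 and for cholesterol genes 1.22, 0.85 and 0.87, so the 3 mice were closer to each other there. Over all genes the medians were -0.08, -0.01 and -0.12.

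**Figure D5:**
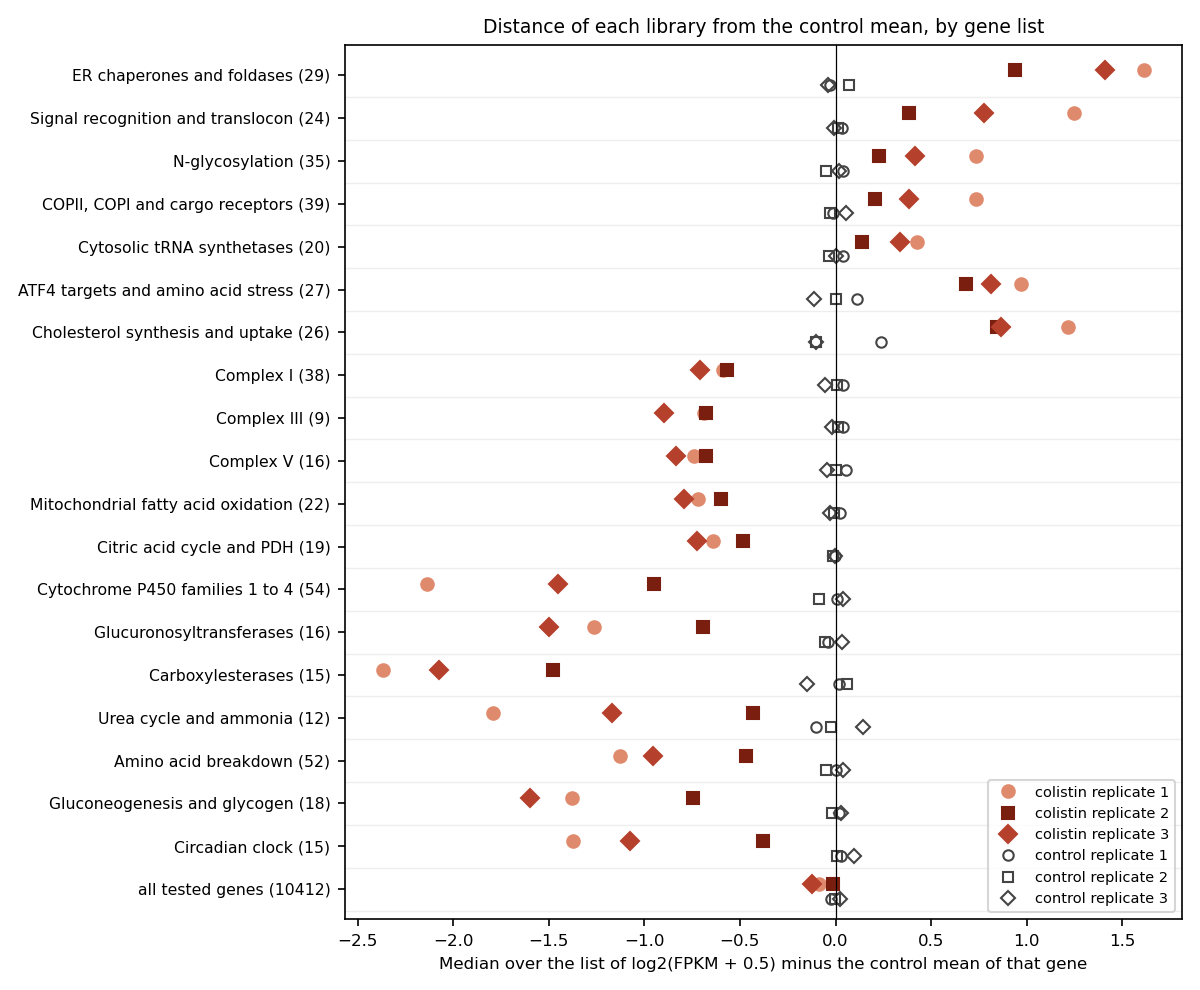
Points are the median distance of a list's genes from the control mean, in log2(FPKM + 0.5), in each colistin and each control library, for 19 lists and for all tested genes. Colistin replicate 2 lies nearer to the control libraries than replicates 1 and 3 for the translocon, the urea cycle and the clock, and beside them for complexes I, III and V.

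The same lists were read in the other pair of groups, colistin + 7-HC against 7-HC, whose 6 libraries are separate from those above. There 14.5% of all tested genes were higher and 16.8% lower. ER chaperones rose in 22 of 29 (median 1.29), against 24 of 29 without 7-HC, and ATF4 genes in 15 of 27, against 14 of 27. P450 genes fell in 29 of 54 (median -1.21), against 39 of 54. For Mup and growth hormone genes 4 of 29 fell with a median of 0.34, against 24 of 29, and in the antigen presentation and interferon list 17 of 32 rose and 2 fell, against 5 and 7 of 32. These 7 falls numbered 2 without colistin replicate 1, 2 without colistin replicate 3, 3 without control replicate 1 and 2 without control replicate 2. The difference of the colistin effect with and without 7-HC passed at an adjusted p under 0.05 for 32 genes (0.307% of those tested). This count was 0 without colistin replicate 1 or colistin replicate 3, 135 without colistin replicate 2, and 2, 1 and 23 without control replicates 1, 2 and 3, and for lists the difference was not tested.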

How the data were processed

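RNA was sequenced from 12 mice, 3 in each of 4 groups. Per the submitters' processing notes and the methods of the study, the authors aligned reads with HISAT2 2.0.4 (GRCm38.p6) and Bowtie2 2.2.5, estimated expression with RSEM 1.2.12 and made their own comparisons with DESeq2 1.4.5, whose columns were not used. No unit is given for the deposited values. Since they have decimals and unequal sums per library, they were read as FPKM, made by the authors through RSEM and not scaled between libraries. Reads per library and the strand of counting are not given in the sources used here, so no counting interval was computed, and overlapping genes or near-identical copies can share reads. Of 22899 listed genes 5161 were blank in all 12 libraries, and 21633 identifiers matched RefSeq.

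For testing, log2(FPKM + 0.5) of all 12 libraries entered a limma fit (version 3.58.1, R version 4.3.3) that used the mean-variance trend, a term for each group and Benjamini-Hochberg adjustment over 10412 genes. The residual degrees of freedom were 8. The pseudocount understates the fold changes of low genes. The script was tested on simulated data.

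The members, gene lists, motifs and rule for named genes were chosen with earlier results of these data known. The rule took up to 4 genes per list that were called, did not overlap between groups and averaged 5 FPKM or more in the higher group, by largest change, and the 12 largest rises and falls on no list. It gave 246 genes, not all of which are reported here. All others, named as members that rose or fell against their list or were not called, as marker genes or as regulators, were chosen after their values were seen.

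Alternatives were scaling by median ratios, no filter, a filter of 1 FPKM in all 6 libraries or in at least 3 of 12, pseudocounts of 0.1 and 1, a fit of 2 groups, replicate number as a block and each library left out. Python 3.11.15, pandas 2.3.3 and matplotlib 3.10.9 were used. The interaction network and protein data of the study were not analysed here.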

Additional observations from a re-analysis of the deposited data

Results flagged for a closer look

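For 6 named genes the effect of colistin with 7-HC present differed from that without it, by the test of the difference itself (limma, adjusted p under 0.05). Differences are on the log2 scale, the effect with 7-HC minus the effect without. Mean levels of the groups without colistin are given beside each difference (± SD, n = 3 each), since they enter it as well; whether they differed was not tested. Hsd3b5, a steroid dehydrogenase gene with near-identical copies, had a difference of 3.88, with effects of -2.56 with 7-HC and -6.43 without. It was at 0.05 ± 0.0346 FPKM in colistin + 7-HC and 0.08 ± 0.0854 FPKM in colistin, all libraries below the pseudocount, and at 2.76 ± 0.554 FPKM in 7-HC and 60 ± 44.5 FPKM in control. Hsd3b2, of the same family, had a difference of 2.98, with effects of -2.77 with 7-HC and -5.75 without, and was at 16 ± 2.25 FPKM in 7-HC and 72.3 ± 16.3 FPKM in control. Nnmt had a difference of -4.15, with effects of 0.79 with 7-HC and 4.94 without. It was at 26.1 ± 12.6 FPKM in colistin + 7-HC, 64.1 ± 13.9 FPKM in colistin, 16.4 ± 11.3 FPKM in 7-HC and 1.63 ± 0.61 FPKM in control. The metallothionein genes Mt1 and Mt2 had differences of -2.50 and -2.18, with effects of 2.26 and 2.57 with 7-HC, against 4.77 and 4.75 without. Mt1 was at 1214 ± 329.8 FPKM in 7-HC and 273 ± 97.5 FPKM in control, and Mt2 at 806 ± 144 FPKM in 7-HC and 206 ± 37.8 FPKM in control. Usp18, an interferon-stimulated protease gene, had a difference of 2.92, with effects of 1.71 with 7-HC and -1.20 without. It was at 16.8 ± 7.17 FPKM in colistin + 7-HC, 6.34 ± 1.95 FPKM in colistin, 4.62 ± 1.33 FPKM in 7-HC and 15.7 ± 5.93 FPKM in control, and its call in colistin against control was lost without colistin replicate 1, colistin replicate 3, control replicate 1 or control replicate 2. The 32 genes that differed over all tested were 0 without colistin replicate 1 or colistin replicate 3, 135 without colistin replicate 2, and 2, 1 and 23 without control replicates 1, 2 and 3, so the count moved with single libraries. The 7-HC vehicle also held DMSO, which cannot be told apart from 7-HC here.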

How the results depend on the processing

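Of the 246 named genes 0 reversed their direction under any alternative, 244 kept their call after scaling by median ratios and 224 kept it with each of the 6 libraries left out. They had been picked as called, without overlap and largest in change, which favours such stability. The 3432 calls became 2456 to 3702 with a library left out and 2833 with a fit of the 2 groups. The 637 genes past a fold of 2 at an adjusted p of 0.001 became 85 with a fit of the 2 groups, and 319 to 937 with a library left out. The 32 genes whose effect differed with 7-HC became 6 with no filter, 5 with a pseudocount of 0.1, and 0 to 135 with a library left out. The cause of these shifts was not tested. With replicate number as a block, 3120 genes were called, 425 passed the stricter thresholds and 0 differed with 7-HC. Over all genes the numbers showed no pairing: the correlation of residuals was over 0.1 in 1 of 18 same-numbered pairs and in 0 of 3 between colistin and control. Such a correlation does not describe single lists. The cytosolic chaperonin and heat shock list was highest in replicate 2 of both groups. It summed to 1752, 2810 and 1925 FPKM in colistin and 1737, 2504 and 1715 FPKM in control. Shared effects in other lists were not tested. Of 116 counts of rises or falls over the lists, 14 moved by over 1.5 times after scaling, 5 with the block, 22 with a fit of the 2 groups, 13 with no filter, 6 with a filter of 1 FPKM in all 6 libraries and 0 with either pseudocount. With a library left out, 31, 10 and 27 moved for colistin replicates 1, 2 and 3, and 22, 24 and 22 for control replicates 1, 2 and 3. Reads per library are unknown, so the counting error of low values could not be given.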

Other observations

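The rises given here are among the 12 largest of called genes that were on no list. Slpi, a secreted inhibitor of leukocyte proteases, was at 76.3, 179 and 83.2 FPKM in colistin, against 2.59, 0.89 and 0.82 FPKM in control (log2 fold change 5.88, SE 0.38, adjusted p = 1.95e-06). Irak3, a brake on interleukin-1 and Toll-like receptor signalling, rose by 4.56. Alpk1, a kinase that senses bacterial heptose sugars, was at 19.9, 6.37 and 20.8 FPKM in colistin, against 0.65, 0.55 and 0.41 FPKM in control (log2 fold change 3.80, SE 0.37, adjusted p = 2.96e-05). Tifa, the adaptor that acts after this kinase, was at 136, 20.2 and 184 FPKM in colistin, against 4.18, 5.78 and 5.79 FPKM in control (log2 fold change 3.82, SE 0.66, adjusted p = 0.00124). In both genes every colistin library was above every control library. Alpk1 was below 1 FPKM in all control libraries, so the size of its rise depends on the pseudocount. Crybb3, a crystallin gene of the eye lens, was at 49.6, 15.2 and 52.5 FPKM in colistin, against 0.6, 0.76 and 0.08 FPKM in control, where the fold depends on the pseudocount (log2 fold change 5.22, SE 0.42, adjusted p = 1.02e-05). Miox, the myo-inositol oxygenase known as an enzyme of the proximal tubule, was at 15.8, 9.35 and 7.3 FPKM in colistin, against 0.32, 0.21 and 0.05 FPKM in control (log2 fold change 3.98, SE 0.28, adjusted p = 3.53e-06). Its fold depends on the pseudocount as well. Reg3g, a C-type lectin against bacteria, was listed at 0 in all 3 control libraries and was at 38.8, 1.24 and 5.18 FPKM in colistin. Fgl1, a fibrinogen-like protein of hepatocytes, rose by 3.73.

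Among the 12 largest falls on no list were genes of carbonic anhydrases, enzymes that hydrate carbon dioxide. Car1 was at 0.14, 0.23 and 0 FPKM in colistin, against 6.88, 6.31 and 8.53 FPKM in control (log2 fold change -3.64, SE 0.17, adjusted p = 3.08e-07). It passed the filter only through the control libraries, and the size of its fall depends on the pseudocount. Car14 had a log2 fold change of -3.63. Upp2, a uridine phosphorylase, was at 3.49, 102 and 14.4 FPKM in colistin, against 416, 345 and 428 FPKM in control (log2 fold change -4.43, SE 0.82, adjusted p = 0.00194). Rgs16, a regulator of G protein signalling, was at 2.42, 5.07 and 5.27 FPKM in colistin, against 183, 50.8 and 77.8 FPKM in control (log2 fold change -4.31, SE 0.43, adjusted p = 3.58e-05). Usp2, a ubiquitin protease under clock control, had a log2 fold change of -3.78. The groups did not overlap in these 5 genes, which was a condition for naming them.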
